A study of Mus musculus with 2 samples.

Results

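The 9 genes described here encode the MYC, MYCN and MAX transcription factor network: Myc, Mycn, Max, Mxd1, Mxd3, Mxd4, Mxi1, Mnt and Mlx. They were taken by gene symbol from the 31053 genes of the count matrices, and the choice used no measured value. The study profiled single mouse leukemia progenitors that the labels call I1DN and describe as sorted for cKit and against Cd11b. The labels do not spell out the alleles behind I1DN, which both groups share. One group came from mice given vehicle and the other from mice given AG-120 (ivosidenib, an inhibitor of mutant IDH1), each for 5 days. Each group is 1 library, so no difference below has a replicate check: the values compare 2 libraries, no test was made, and every interval is a 95% interval that covers counting error only. Age, sex, number of animals and any pooling are not given in the sources used here. The comparison addresses how progenitors of this leukemia differ in transcription after inhibition of mutant IDH1.

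MYC and MYCN are basic helix-loop-helix leucine zipper proteins that bind DNA only as heterodimers with MAX, mostly at the E-box CACGTG, and raise transcription of genes for ribosome building, metabolism and cell growth. The MXD proteins (MXD1, MXD3, MXD4 and MXI1, also called MXD2) and MNT compete for MAX and for the same E-boxes and recruit SIN3 and histone deacetylases, while MLX is a MAX-like partner that joins some of these repressors to a parallel nutrient-sensing branch. In blood formation, MYC is known to promote exit from the stem cell state and growth of committed progenitors, MYCN shares this work in stem cells, and the MXD proteins are known for rising as cells stop dividing and mature.

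The E-box also stands in the promoters of the network's own genes, and the windows below show where. The reference table of RefSeq promoters (build GRCm38.p6, 250 bases before to 50 bases after each start) held 8 of the 9 members; Myc had no entry. CACGTG, a palindrome and so the same on both strands, was found in 4 of these 8 promoters, in 12 of 40 matched promoters of a MYC target list (30%), and in 2187 of 27025 promoters in all (8.09%). The match is a description of letters and not a binding site. Mxd4, Mnt and Mlx carry it before the start, and in Max it spans the start itself. The windows of Mxd4, Mnt and Mlx are shown, with Hspd1 as a MYC target described below, 5′ to 3′ on the gene's strand with the E-box in capitals.
Mxd4: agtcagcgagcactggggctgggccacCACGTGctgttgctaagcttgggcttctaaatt
Mnt: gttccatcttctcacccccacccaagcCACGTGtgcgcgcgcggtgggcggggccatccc
Mlx: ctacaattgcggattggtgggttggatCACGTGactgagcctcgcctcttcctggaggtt
Hspd1: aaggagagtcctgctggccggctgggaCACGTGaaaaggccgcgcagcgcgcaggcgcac
The Mxd4 window lies at chr5:34187897-34187956 (minus strand), with the first base of its E-box 219 bases before the start. The Mnt window lies at chr11:74830774-74830833 (plus strand), with that base 123 bases before the start. The Mlx window lies at chr11:101087223-101087282 (plus strand), with that base 40 bases before the start. The Hspd1 window lies at chr1:55088291-55088350 (minus strand), with that base 80 bases before the start. Mycn, Mxd1, Mxd3 and Mxi1 had no CACGTG in these windows.

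Cells needed 500 genes or more and no more than 10% mitochondrial UMIs (unique molecular identifiers, which count captured transcripts); 3914 vehicle and 3756 AG-120 cells passed, with 56240310 and 96084632 UMIs and medians of 13156.5 and 25681.5 UMIs per cell. Of the cell barcodes kept, 17 were seen in both libraries. Kit, the gene of the sorted surface receptor, had a UMI in 49.4% of vehicle and 46.1% of AG-120 cells. Itgam, which encodes Cd11b, had one in 6.57% and 1.70%. These shares are at unequal depth. In CPM (UMIs scaled to a fixed library total), Kit stood at 58.3 in vehicle and 30.4 in AG-120, and Itgam at 5.51 and 0.937. The libraries differed in cell makeup. Erythroid-like cells were 0.664% of vehicle and 72.7% of AG-120 cells. Megakaryocyte-like cells were 27.9% and 1.01% (6.77% to 25.5% of vehicle cells in other clusterings). The 15 erythroid markers summed to 292 against 2364 CPM. Of these markers Slc4a1 was at 0 in vehicle, while the 10 megakaryocyte markers summed to 667 against 75.3 CPM, with Gp6 at 0 under AG-120. The stem cell markers (10, of which Mecom, Hlf, Hoxb5 and Fgd5 were at 0 in both libraries) summed to 996 against 61.6 CPM. Since a library level is a sum over cells, fewer cells with a transcript and less of it per cell cannot be told apart from that level alone, so shares of cells and levels within classes are given as well.

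Myc was higher and Mycn lower in the AG-120 library, and most of the MAX-binding repressors were lower, while Max and Mlx differed little. With higher or lower meaning a ratio of 1.2-fold or more, 2 of the 9 members (Myc and Mxi1) were higher, beside 28.8% of the 9419 genes with at least 500 UMIs, and 5 (Mycn, Mxd1, Mxd3, Mxd4 and Mnt) were lower, beside 42.2%. At 2-fold, 1 member was higher (Myc, beside 6.35%) and 2 were lower (Mycn and Mxd4, beside 15.2%). These shares of members are read against a library pair in which 71% of genes passed 1.2-fold either way. The median log2 ratio of AG-120 over vehicle was -0.32 for the members and -0.12 for all measured genes. With the ratios shifted by that median, Max and Mlx also passed 1.2-fold upward, so that 4 members were higher, and Mxd1 no longer passed, so that 4 were lower. With the AG-120 classes weighted to the vehicle makeup, 3 members (Mycn, Mxd4 and Mnt) were lower. The unnamed class, which holds different clusters in the libraries (0, 1, 9 and 10 in vehicle, mainly cluster 5 in AG-120, with 553 of 603 cells), carries 70.4% of that weight, so these values do not match cell types. Mxd1 also stayed short of 1.2-fold, at a log2 ratio of -0.23, in cells of 1500 genes or more with 5% mitochondrial UMIs or less, which left 4 members lower.

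**Figure D1:**
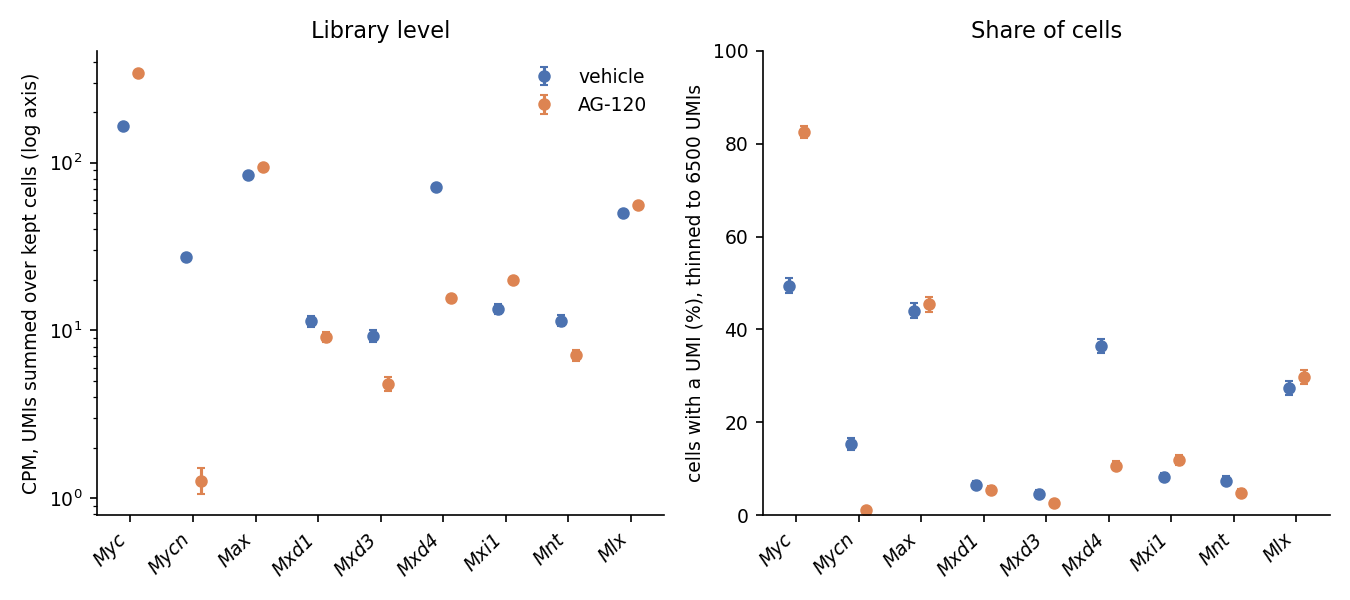
Level of each member in each library in CPM on a log axis (left) and share of cells with at least 1 UMI after thinning every cell to 6500 UMIs (right), with 95% intervals for counting error. Myc stands at 164 CPM in vehicle and 344 in AG-120, Mycn at 27.3 and 1.27, while the points of Max and Mlx lie close together.

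Myc (chromosome 15, 61985391 to 61990374, plus strand, GRCm38), the growth-promoting activator of the network, stood at 164 CPM in the vehicle library (161 to 168; 9240 UMIs) and 344 CPM in the AG-120 library (340 to 348; 33053 UMIs). The ratio was 2.09 (2.05 to 2.14), a log2 ratio of 1.07, and the intervals of the libraries lay far apart. The difference was present in the number of cells too. After thinning to 6500 UMIs, Myc had a UMI in 49.4% of 3553 vehicle cells and in 82.6% of 3625 AG-120 cells, against 63.0% and 93.9% before thinning, when AG-120 cells were the deeper ones. Neutrophil-like cells were taken here as a background for RNA outside cells, but whether they make Myc themselves was not tested. They had a Myc UMI in 4 of 23 thinned vehicle cells (17.4%) and 2 of 14 AG-120 cells (14.3%). Their medians were 12788.5 and 12334.5 UMIs per cell before thinning.

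Mycn (chromosome 12, 12936093 to 12941914, minus strand), the second activator, showed the reverse. It stood at 27.3 CPM in vehicle (25.9 to 28.7; 1533 UMIs) and 1.27 CPM in AG-120 (1.05 to 1.52; 122 UMIs), 21.5-fold lower (17.8 to 26.0) and a log2 ratio of -4.42. Thinned cells with a Mycn UMI were 15.3% in vehicle and 1.21% in AG-120, and unthinned cells 24.1% and 2.53%. No neutrophil-like cell had one, in 0 of 23 and 0 of 14 thinned cells, which by a limit of 3 counts allows shares of up to 13% and 21.4%. The AG-120 share of 1.21% lies under that limit, so at this depth it cannot be set apart from background by these cells.

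Max (chromosome 12, 76937269 to 76962201, minus strand), the obligate partner of MYC and MYCN and a partner of the MXD proteins, stood at 84.1 CPM in vehicle (81.7 to 86.6) and 94.3 CPM in AG-120 (92.3 to 96.2), a ratio of 1.12 (1.08 to 1.16). Its share of thinned cells was 44.0% and 45.4%. Mlx (chromosome 11, 101087277 to 101092207, plus strand) stood at 50.2 CPM (48.4 to 52.1) and 55.8 CPM (54.3 to 57.3), a ratio of 1.11 (1.06 to 1.16), with 27.4% and 29.8% of thinned cells. Both differences exceeded counting error and stayed under 1.2-fold, except with the shift by the median, where the log2 ratios were 0.29 and 0.27.

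Among the repressors, Mxd4 (chromosome 5, 34173883 to 34187720, minus strand), an MXD protein known for its expression in resting and maturing cells, differed most. It stood at 71.4 CPM in vehicle (69.2 to 73.7; 4017 UMIs) and 15.5 CPM in AG-120 (14.8 to 16.3; 1492 UMIs), 4.60-fold lower (4.33 to 4.88). Thinned cells with a Mxd4 UMI were 36.4% and 10.6%. Both the level and the share were therefore far lower in the AG-120 library.

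Mxd3 (chromosome 13, 55325168 to 55329823, minus strand), an MXD protein known for its expression in dividing cells, stood at 9.25 CPM in vehicle and 4.80 CPM in AG-120, 1.93-fold lower (1.70 to 2.19), but at a log2 ratio of 0.21 with the classes weighted to the vehicle makeup. Mnt (chromosome 11, 74830920 to 74845725, plus strand), the broadly expressed repressor that buffers MYC, stood at 11.4 and 7.13 CPM, 1.604-fold lower (1.44 to 1.79). Mxd1 (chromosome 6, 86647042 to 86669161, minus strand), known for its rise in maturing myeloid cells, stood at 11.3 and 9.12 CPM, 1.24-fold lower (1.12 to 1.38), a log2 ratio of -0.32 that became 0.11 with the weighted classes. Mxi1 (chromosome 19, 53310518 to 53375810, plus strand) was the exception among the repressors. It stood at 13.4 CPM in vehicle and 19.96 CPM in AG-120, a ratio of 1.49 (1.37 to 1.62), and its thinned share was 8.19% and 11.8%.

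Neighbouring genes limit 2 of these values, since whether the counting used strand is not given in the sources used here. Mxd3 overlaps Prelid1 on the opposite strand, which held 13993 UMIs in vehicle and 33471 in AG-120 against 520 and 461 for Mxd3. Mlx overlaps Psmc3ip on the opposite strand, with 1833 and 4120 UMIs against 2826 and 5358 for Mlx. Without strand, reads from such partners cannot be told apart.

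Levels by cell state were then compared over 15 cluster-by-library units of at least 50 cells, 6 of vehicle and 9 of AG-120. Clustering left out the members, their listed partners and targets and the cell cycle genes. Clusters are given by number, and by class where marker genes allowed a name. Vehicle cells fell mainly into cluster 0 (led by Ltb and Cd34), cluster 1 (Sox4 and Tox), cluster 9 (Pclaf, Igfbp7 and Tcf19), cluster 10 (Prg2, Cd74 and Elane), all unnamed, and the Megakaryocyte-like clusters 2 and 7, of which 7 was also led by mitotic genes. AG-120 cells fell into the Erythroid-like clusters 3, 4, 6, 8, 12 (led by the interferon-stimulated gene Isg15) and 13, the unnamed cluster 5 (Ifitm1), the Granulocyte-monocyte progenitor-like cluster 11 and the Basophil/mast-like cluster 14. With nearly every cluster made up of 1 library, cluster and treatment cannot be told apart for most units.

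Myc was highest in 6 AG-120 units. It reached 424 CPM in Erythroid-like cluster 3 (412 to 436), followed by clusters 12 (395), 8 (383), 4 (367), 6 (332) and the unnamed cluster 5 (329). Granulocyte-monocyte progenitor-like cluster 11 had 255 CPM and Erythroid-like cluster 13 had 223 CPM, and between them stood vehicle cluster 0 with 238 CPM. Vehicle clusters 10 (214), 1 (166) and 9 (141) followed. The lowest levels were in vehicle Megakaryocyte-like clusters 2 (103) and 7 (65.4), with AG-120 Basophil/mast-like cluster 14 (89.4) between. Neighbours in the order whose intervals overlapped were clusters 12 and 8, 8 and 4, 6 and 5, 11 and 0, 0 and 13, 13 and 10, 2 and 14, and 14 and 7. From the highest to the lowest unit the level differed 6.49-fold, and 3.85- to 9.28-fold when cells were clustered in other ways.

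Mycn had a different and narrower distribution. It was highest in the vehicle Megakaryocyte-like cluster 2 (56.8 CPM; 51.6 to 62.4) and the Sox4- and Tox-led vehicle cluster 1 (56.2; 50.9 to 61.8), which overlapped, followed by Megakaryocyte-like cluster 7 (37.4). Vehicle clusters 0 (15.7), 9 (9.41) and 10 (0.912) were lower, so that within the vehicle library alone the level ranged from 56.8 to 0.912 CPM. The Megakaryocyte-like class held 27.9% of vehicle cells and 49.2% of the Mycn UMIs, but 14.6% of the Myc UMIs. In AG-120 no unit exceeded 7.33 CPM (cluster 14, 5 UMIs), cluster 3 had 3.50 CPM (2.49 to 4.78) and cluster 5 had 3.099, and Erythroid-like cluster 6 had 0 UMIs (up to 0.199 CPM). Across the 15 units the Pearson correlation of Myc with Mycn on log2(CPM + 10) was -0.71, with -0.56 over the 6 vehicle and -0.65 over the 9 AG-120 units. The units share their library and depth, so these are descriptions.

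**Figure D2:**
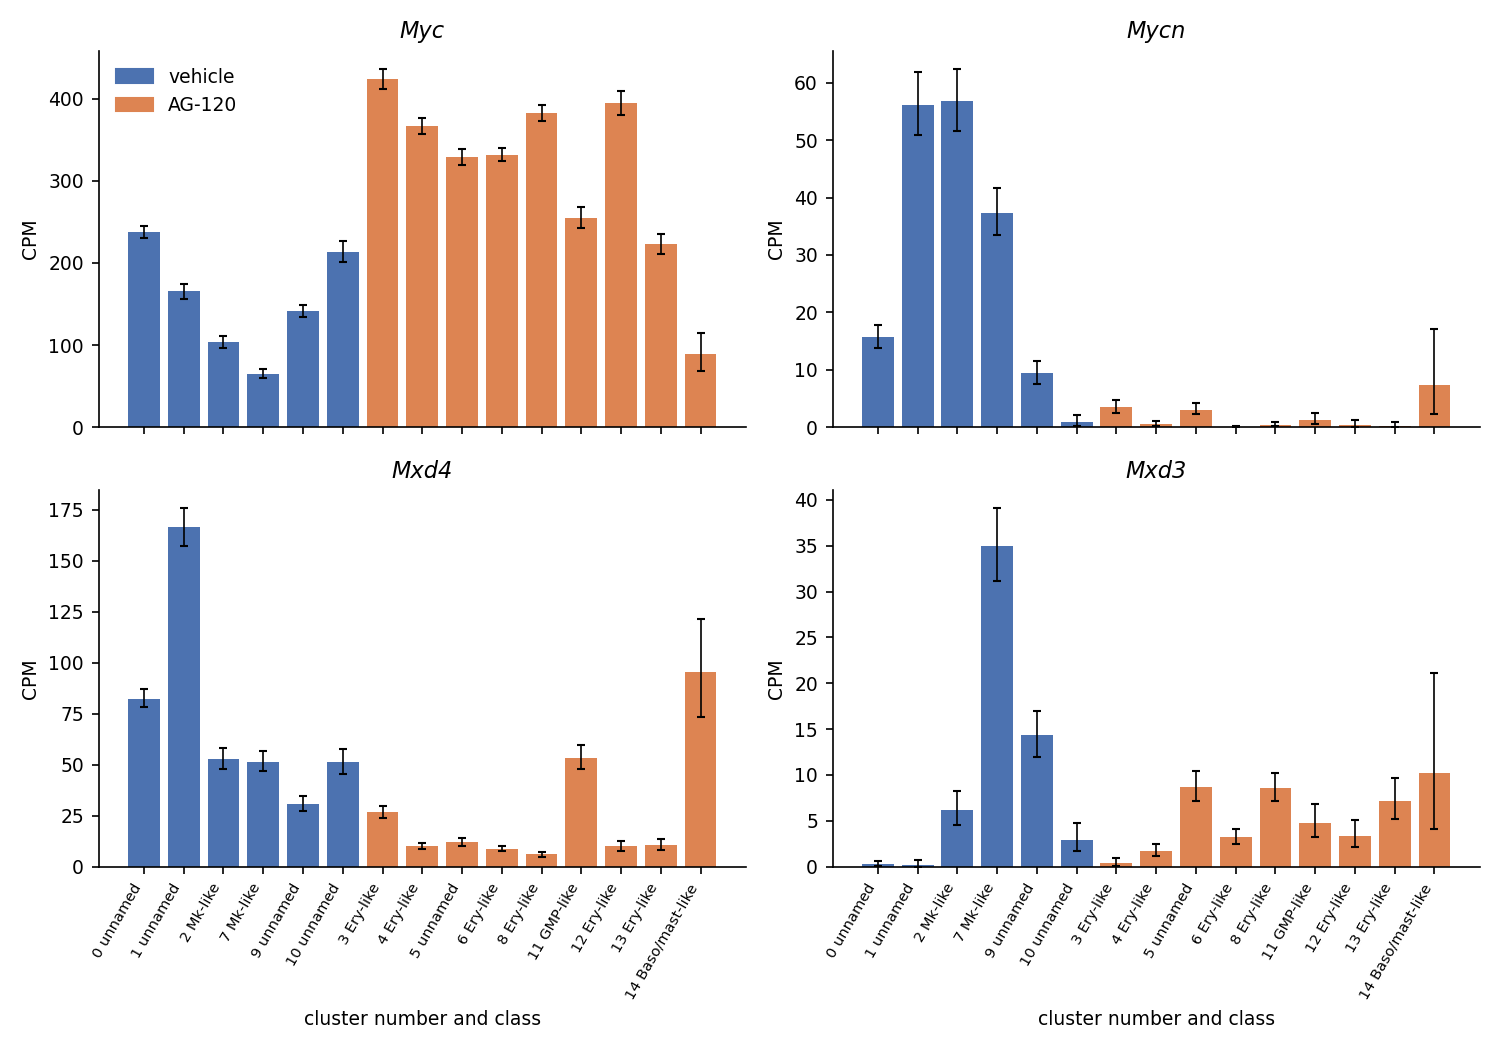
Level in CPM of Myc, Mycn, Mxd4 and Mxd3 in each cluster of at least 50 cells, vehicle units in blue and AG-120 units in orange, with 95% counting intervals and a separate scale for each gene. Mycn is highest in vehicle clusters 2, 1 and 7, Mxd4 peaks in cluster 1 and Mxd3 in the mitotic cluster 7.

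Mxd4 ranged 27.8-fold, from 166 CPM in vehicle cluster 1 (157 to 176) to 5.99 in Erythroid-like AG-120 cluster 8. With other clusterings the range was 12.2- to 28.4-fold. AG-120 cells were not uniformly low in it, with 95.3 CPM in Basophil/mast-like cluster 14 and 53.5 in cluster 11, which overlapped vehicle clusters 2 (52.7), 7 (51.5) and 10 (51.4). The 6 Erythroid-like AG-120 units ranged from 5.99 to 26.7 CPM. Mnt followed a similar order, from 16.2 CPM in vehicle cluster 1 to 5.86 in AG-120 cluster 13, and the correlation of Mxd4 with Mnt over the 15 units was 0.90 (0.95 over vehicle, 0.80 over AG-120 units), the highest of the 36 pairs of members. Both are among the genes whose promoter windows are printed above. So is Mlx, whose correlations over the 15 units were -0.28 with Mxd4 and -0.33 with Mnt. A link between the windows and these levels was not tested.

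Mxd3 was highest in the mitotic vehicle cluster 7 (34.9 CPM; 31.1 to 39.1), followed by vehicle cluster 9 (14.3), which is led by Pclaf, Igfbp7 and Tcf19. It stood at 0.248 and 0.133 CPM in vehicle clusters 0 and 1. Mxd1 was highest among these units in Basophil/mast-like cluster 14 (29.3 CPM; 17.9 to 45.3) and vehicle cluster 1 (19.4). Its order depended on the clustering: at resolution 0.5 and with 3000 variable genes a vehicle Megakaryocyte-like cluster was highest, at 15.2 and 16.7 CPM. Its range was 5.82-fold, and 1.86- and 2.82-fold in those clusterings. Neutrophil-like cells, too few for a unit, reached 108 CPM of Mxd1 in vehicle (79.9 to 143; 32 cells) and 104 in AG-120 (70.5 to 147; 22 cells), far above both library levels. Max and Mlx varied least, from 77.4 to 107 CPM and from 37.2 to 62.2 CPM, while Mxi1 ranged from 10.6 CPM in vehicle cluster 0 to 24.2 in Erythroid-like cluster 8.

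Few cells of a named class were present in both libraries, and their clusters differed. In the Megakaryocyte-like class (1093 vehicle and 38 AG-120 cells, of which the mitotic cluster 7 held 494 and 8), Myc was 83.2 and 179 CPM, a ratio of 2.16 (1.75 to 2.63), and Mycn 46.5 and 6.76 CPM, a ratio of 0.145 (0.0395 to 0.374; 755 and 4 UMIs). In cluster 2 alone (599 and 30 cells) the difference in Myc was smaller, 103 and 147 CPM, a ratio of 1.42 (1.09 to 1.83), and Mycn stood at 56.8 and 4.52 CPM, a ratio of 0.0796 (0.00961 to 0.289), on 2 AG-120 UMIs. In the Erythroid-like class (26 vehicle cells and 2731 AG-120 cells, spread unequally over the 6 clusters), Myc was 256 and 361 CPM, a ratio of 1.41 (1.24 to 1.61), and Mycn 6.60 and 0.798 CPM, a ratio of 0.121 (0.0523 to 0.342; 6 and 59 UMIs). Cluster 13, with 223 CPM of Myc in AG-120, held 6 vehicle and 183 AG-120 cells. Cluster 3, with 424 CPM, held 2 and 626. The part of this makeup in the Myc ratio was not tested. So in both classes Myc was higher and Mycn lower in the AG-120 cells, as over the whole libraries. In the Neutrophil-like class (32 and 22 cells) the interval for Myc took in 1, with 50.7 and 43.5 CPM and a ratio of 0.858 (0.399 to 1.77), and Mycn had no UMI in either library. For Mxd4 the classes were less clear. Its ratio was 0.681 in the Megakaryocyte-like class (0.420 to 1.05) and 0.600 in cluster 2 alone (0.325 to 1.02), lower with intervals that took in 1. In the Erythroid-like class it was 3.47 (1.18 to 16.9), where 26 vehicle cells held 3 UMIs. The ratio of Max was 1.01 (0.746 to 1.35) in the Megakaryocyte-like class and 1.02 (0.825 to 1.27) in the Erythroid-like class.

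Cluster 10, led by the granule and antigen-presentation genes Prg2, Cd74 and Elane, went the other way for Myc. It stood at 214 CPM in 280 vehicle cells and 81.3 CPM in 30 AG-120 cells, a ratio of 0.381 (0.259 to 0.540). In these cells Mxd1 was 5.84 and 22.9 CPM, a ratio of 3.92 (1.64 to 8.40), and Mxd3 was 2.92 and 15.2 CPM, a ratio of 5.22 (1.67 to 14.0), on 9 and 6 AG-120 UMIs. Other measures of cluster 10 differed too. The ratio was 0.376 for the stem and progenitor list, 0.608 for the S phase list and 1.36 for the G2/M list, and the median depth was 19012 and 12385 UMIs per cell. Their part in the Myc ratio was not tested. Clusters 10 and 11 passed the same share, 0.75, of the granulocyte-monocyte progenitor markers. The 279 AG-120 cells of cluster 11 stood at 255 CPM of Myc (243 to 268), above the 214 CPM of vehicle cluster 10. The lower Myc level under AG-120 thus rests on the 30 AG-120 cells of cluster 10.

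Whether Myc and Mycn are detected in the same cells was asked at equal depth. In vehicle, 1756 of 3553 thinned cells had a Myc UMI, 544 a Mycn UMI and 196 (5.52%) both, against 7.57% from the product of the shares, 0.729 times that product. Mycn was detected in 11.2% of Myc-positive cells (9.73 to 12.7) and in 19.4% of Myc-negative cells (17.6 to 21.3), intervals that did not overlap. The clusters differed in this. In cluster 1 Mycn was found in 16.8% of Myc-positive and 30.03% of Myc-negative cells, and in cluster 0 in 6.99% and 11.5%. In Megakaryocyte-like cluster 2 the shares were 27.6% and 26.5%, with 1.03 times the product, and in cluster 7 they were 20.7% and 25.2%. Against the products formed within each cluster, vehicle cells with both were 0.825 times as many. In AG-120, 33 of 44 Mycn-positive cells also had a Myc UMI, 0.908 times the product. A cell without a UMI at this depth may still hold the transcript.

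Vehicle cells with a Mycn UMI only (348) and with a Myc UMI only (1560) differed in their clusters. Of the Mycn-only cells 50.9% were Megakaryocyte-like (45.5 to 56.2), against 16.6% of the Myc-only cells (14.8 to 18.5). The size of this class depended on the clustering. Its share of vehicle cells was 27.9%, and 14.8% at resolution 0.5, 16.6% at resolution 1.5, 25.5% with 3000 variable genes and 6.77% with each library clustered alone. In these 4 other clusterings it held 11.2% to 47.7% of the Mycn-only and 3.40% to 15.3% of the Myc-only cells, 2.68 to 3.30 times as large a share. By single clusters, cluster 2 held 26.1% and 9.74% and cluster 7 held 24.7% and 6.86%. Cluster 1 held 28.7% and 16.8%, while cluster 0 held 13.5% and 40.1% and cluster 10 held 0.575% and 10.6%. Cells with both lay nearer to the Mycn-only cells, with 43.9% Megakaryocyte-like. The phase calls differed as well, with 31.3% of Mycn-only and 14.9% of Myc-only cells called G2/M, and 25.6% and 45.4% called S. In this the cells with both lay nearer to the Myc-only cells, with 16.3% called G2/M and 38.8% called S. The G2/M list stood 1.598 times as high in Mycn-only as in Myc-only cells and the S phase list 0.804 times, but 1.07 and 0.930 times as means of the ratios within clusters. That S phase mean joins clusters that went in opposite directions. The ratio was 0.691 in cluster 2, with its interval below 1, and 1.14 in cluster 0, with its interval above 1. In clusters 1 and 7 it was 0.983 and 0.967, with intervals that took in 1.

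**Figure D3:**
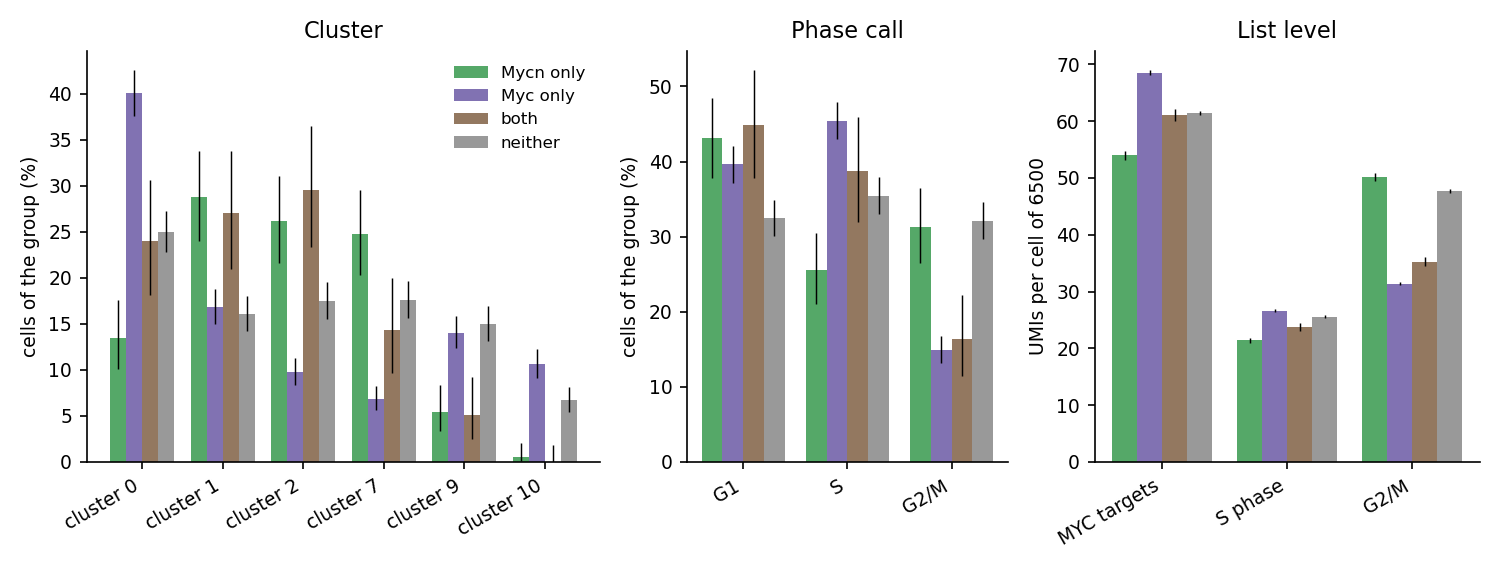
Vehicle cells thinned to 6500 UMIs and split by detection of Myc and Mycn: percent of each group in each cluster, percent in each called phase, and summed UMIs per cell of 3 gene lists, with 95% counting intervals. The Mycn-only cells lie more in clusters 1, 2 and 7 and carry 54.0 UMIs of MYC targets per cell, against 68.5 in the Myc-only cells.

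Over 5258 genes with at least 300 UMIs in these cells, 19.5% were higher in Mycn-only and 13.6% in Myc-only cells by 1.2-fold or more, and 0.723% and 0.932% by 2-fold. The 8 genes with the highest ratios were Mfsd2b (3.35-fold; 2.71 to 4.14), a sphingosine 1-phosphate exporter of red cells and platelets, Ube2c (3.08), Gata1 (3.02; 2.56 to 3.55), the master factor of the erythroid and megakaryocyte lineages, and the mitotic genes Cenpf, Nusap1, Cenpa, Ccnb1 and Ccnb2, at 2.86 to 2.57. Ube2c, Gata1, Cenpa and Ccnb1 were higher in all 4 clusters with at least 30 cells of each kind, Mfsd2b, Cenpf and Ccnb2 in 3 and Nusap1 in 2. The 8 lowest were Emb (28.2-fold lower; 12 to 87), the neutrophil granule protease genes Elane and Ctsg (22.5- and 15-fold), Stfa1 (14.7-fold), Hp, C3, S100a9 and Milr1, at 11.7- to 9.02-fold. Emb and Ctsg were lower in 4 of the 4 clusters, while Stfa1 and S100a9 were lower in 2 and higher in 2.

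Of 4 other members compared between these cells, Mxd1 and Mxd3 stood higher in the Mycn-only cells, while Mxd4 and Max differed little. Mxd1 stood at 15.5 CPM in Mycn-only and 9.07 in Myc-only cells (10.8 to 21.5 and 7.31 to 11.1), and Mxd3 at 10.2 and 5.03 CPM (6.45 to 15.3 and 3.74 to 6.61). Mxd4 was at 82.2 and 84.2 CPM and Max at 95.9 and 86.9 CPM. The intervals overlapped for each of these 4 genes, for Mxd1 and Mxd3 only at their edges. Mxi1, Mnt and Mlx are not reported here.

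The level of a list of 46 textbook MYC targets was then set beside each activator. Mycn-only vehicle cells carried 54.0 target UMIs per 6500 (53.2 to 54.8), Myc-only cells 68.5 (68.1 to 69.0), cells with both 61.1 and cells with neither 61.4. The ratio of Mycn-only to Myc-only cells was 0.788. It lay under 1 in each of the 4 clusters that could be compared, at 0.964 in cluster 0, 0.936 in cluster 1, 0.879 in cluster 2 and 0.878 in cluster 7, each nearer to 1 than the value across clusters. By the number of Myc UMIs in a cell (0, 1, 2, 3 or more), target UMIs were 60.01, 66.9, 66.6 and 70 in vehicle and 116, 129, 131 and 130 in AG-120. By Mycn UMIs in vehicle they were 65.1, 56.4, 58.9 and 51.1, the reverse order at its ends. Within clusters the ratio of Myc-positive to Myc-negative cells was 1.07 to 1.11 in 6 of 6 vehicle clusters, and 0.994 to 1.06 over 8 AG-120 clusters, of which 7 were above 1 and 4 had an interval above 1.

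Between the libraries, targets of MYC were higher almost throughout. Of the 46, 45 were measured, 43 were higher in AG-120 and none lower (beside 28.8% and 42.2% of all measured genes), and the median log2 ratio was 0.85. Shmt1 (-0.21) and Ccnd2 (-0.17) passed in neither direction, and Tert, with 126 and 42 UMIs, was not measured. Tfrc, the transferrin receptor gene, stood at 13.8 and 51.9 CPM (log2 ratio 1.91; it is also one of the 15 erythroid markers), Odc1, the first enzyme of polyamine synthesis, at 112 and 360 CPM (1.69), the mitochondrial chaperonin gene Hspd1 at 387 and 1185 CPM (1.61) and C1qbp at 317 and 953 CPM (1.59). Summed, the list stood at 10465 CPM in vehicle and 20597 in AG-120. The list level differed between cell classes. The 26 Erythroid-like vehicle cells already stood at 20216 CPM, against 21679 in Erythroid-like AG-120 cells, a ratio of 1.07 (1.06 to 1.09). In Megakaryocyte-like cells the list stood at 9553 and 12827 CPM, a ratio of 1.34 (1.31 to 1.37), and in cluster 10 at 10984 and 6702 CPM, a ratio of 0.610 (0.587 to 0.634), the direction that Myc had there. AG-120 clusters without an erythroid name were high too. Myc-positive and Myc-negative thinned cells carried 120 and 115 target UMIs in AG-120 cluster 5, and 98.8 and 97.3 in AG-120 cluster 11. In vehicle they carried 92.3 and 83.2 in cluster 9, and 69.6 and 63.8 in cluster 10. The part of cell makeup in the library ratio was not tested.

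**Figure D4:**
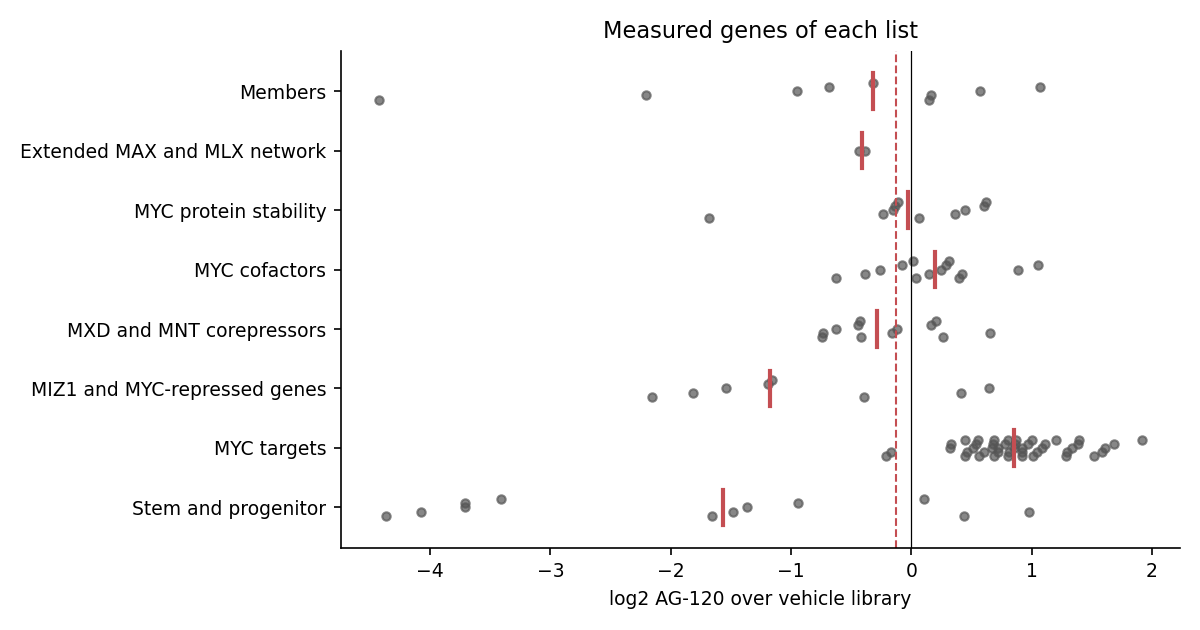
Log2 ratio of the AG-120 over the vehicle library for each measured gene of 8 lists (points), with the list median (solid red) and the median of all 9419 measured genes (dashed). The MYC targets lie to the right, with a median of 0.85, and the MIZ1 and MYC-repressed list to the left, with a median of -1.17.

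Genes that MYC is known to repress, partly through the factor MIZ1, were more often lower. Of 8 measured out of 10, 6 stood lower and 2 higher, beside 42.2% and 28.8% of all measured genes (median -1.17). Ndrg1 stood at 43.4 and 9.73 CPM (log2 ratio -2.16), the cell cycle inhibitor gene Cdkn1a at 39.2 and 11.2 CPM (-1.81), Cebpa, the granulocyte lineage factor, at 33.3 and 11.4 CPM (-1.54) and Txnip at 147 and 64.3 CPM (-1.19). Gadd45a (0.42) and Arrdc4 (0.65) were the higher members. Within classes the summed list was less different, with ratios of 1.07 in Erythroid-like (0.905 to 1.28), 0.863 in Megakaryocyte-like cells (0.748 to 0.992) and 1.54 in cluster 10 (1.29 to 1.84).

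The protein partners of the network had medians nearer to 0, and their counts are read against the same 28.8% higher and 42.2% lower of all measured genes. Of 14 MYC cofactor genes 6 were higher and 2 lower, with a median of 0.20. The AAA+ ATPase genes Ruvbl2 (log2 ratio 1.05) and Ruvbl1 (0.89) differed most, followed by the chromatin reader Bptf (-0.62) and the elongation kinase gene Cdk9 (0.42). Among 12 genes for corepressors of MXD and MNT, 6 had lower and 2 had higher levels (median -0.29), which is near that background, among them Arid4a (-0.74), Sap18 (0.66) and Ncor1 (-0.62). Of 10 measured genes for MYC protein stability 4 were higher and 1 lower, with a median of -0.02. The deubiquitinase gene Usp28 was the lower one (-1.69), and Aurka (0.60, also in the G2/M list), Usp36 (0.44) and Usp7 (0.37) were among the higher ones. Of the extended network, the MAX partner gene Mga (-0.43) and the MLX partner gene Mlxip (-0.38) were lower, and Mycl (8 UMIs in each library) and Mlxipl (3 and 8) were not measured. Of the stem and progenitor list, 12 of 18 were measured, of which 9 stood lower and 2 higher, beside the same 42.2% and 28.8% (median -1.57), led by Cd34 (-4.37), Angpt1 (-4.08), Erg (-3.71) and Meis1 (-3.71).

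Members also differed by called cell cycle phase. In vehicle, Myc stood at 203 CPM in cells called G1, 183 in S and 80.3 in G2/M, the lowest level being in G2/M. In AG-120 the levels were 393, 347 and 342 CPM, a much flatter profile. Mxd3 was a G2/M gene in both libraries. Vehicle cells called G1 held 0 Mxd3 UMIs (up to 0.428 CPM), those in S stood at 2.99 and those in G2/M at 28.8 CPM (24.5 to 33.7), and AG-120 cells at 0.765, 1.85 and 7.16 CPM. Mxd4 was highest in cells called G1, with 135, 52.5 and 50.4 CPM in vehicle and 60.5, 18.1 and 15.7 in AG-120. Mycn in vehicle stood at 41.3, 24.6 and 31.5 CPM. The phase makeup differed between libraries, with 1326, 1388 and 839 vehicle cells and 201, 1576 and 1848 AG-120 cells called G1, S and G2/M. Cycle genes also went with cluster in vehicle. Myc-negative cells carried 128 G2/M list UMIs in cluster 7 (Myc at 65.4 CPM) and 11.2 in cluster 1 (Mxd4 at 166 CPM). The G2/M list ratio of Myc-positive to Myc-negative vehicle cells was 0.661 over all cells and 0.744 to 1.01 within clusters. The part of cluster in these phase profiles was not tested. A phase call alone does not show that a cell divides, and RNA from outside the cell enters it.

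**Figure D5:**
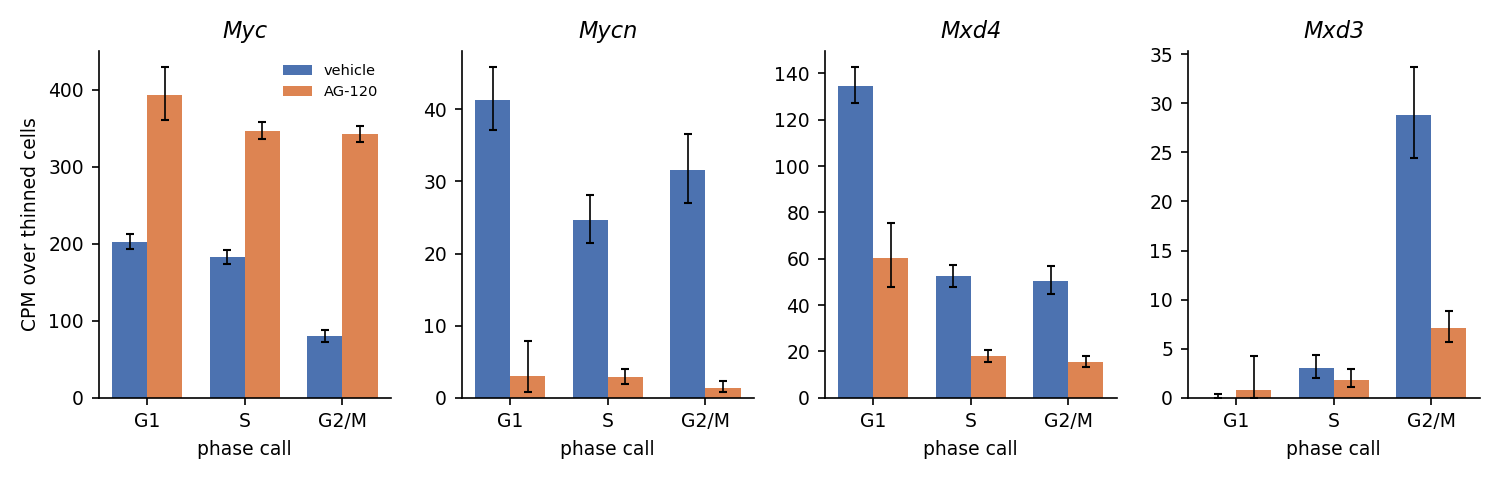
Level in CPM of Myc, Mycn, Mxd4 and Mxd3 over thinned cells called G1, S or G2/M in each library, with 95% counting intervals and a separate scale for each gene. Mxd3 stands at 28.8 CPM in vehicle G2/M cells and 0 in G1, Mxd4 is highest in G1 in both libraries, and Myc is lowest in vehicle G2/M cells.

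Along erythroid maturation Myc and Mycn were lowest in the last bin, and the intervals of the other members overlapped. The 2673 thinned Erythroid-like AG-120 cells were ordered by their UMIs of a late erythroid list and split into 3 bins of 891, which are ranges of a score and not cell types; 564 cells lay within 10% of the first cut and 330 of the second. Myc stood at 393, 387 and 334 CPM from the first to the last bin, and the interval of the last (320 to 350) lay below the others. Mycn stood at 2.59, 1.38 and 0 CPM, on 15, 8 and 0 UMIs, with intervals of 1.45 to 4.27 in the first bin and up to 0.637 in the last. Mxd4 stood at 17.6, 12.6 and 12.6 CPM and Mxd1 at 7.77, 7.60 and 10.2, with overlapping intervals for each gene. Max, Mxi1, Mnt, Mxd3 and Mlx had overlapping intervals in all 3 bins.

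Over the 15 units, the genes whose levels followed Mycn most closely were Rmdn1 (r = 0.98), Srgap3 (0.98), Gng11 (0.97), Arsk (0.97) and Mast4 (0.96). Those for Myc were Gsto1 (0.95), Abhd14a (0.94), Top1mt (0.93), Bsn (0.92) and Pes1 (0.91), the last also in the MYC target list. All are correlations across units that share library and depth.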

How the data were processed

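The deposited files are raw counts of unique molecular identifiers (UMIs) per gene and cell barcode for 2 libraries of 10x single-cell RNA sequencing. The submitters' processing notes name Cell Ranger 3.1.0, Seurat 4.0.4 and the builds mm10 and GRCm38, and a software version of 3.0.2 stands in the matrix headers. The labels name both a 5′ kit and a 3′ platform, so the tagged transcript end is uncertain and levels are compared within a gene, not between genes. Kept cells had at least 500 genes and at most 10% mitochondrial UMIs. Deposited counts were summed over cells and divided by the library's total (CPM). Intervals are exact at 95%: Poisson for levels, Clopper-Pearson for shares and conditional binomial for ratios. UMI counts from 1 library measure no biological spread. A count of 0 allows up to 3 counts. Shares of cells were taken after thinning each cell to 6500 UMIs, which left out 361 vehicle and 131 AG-120 cells. No doublet caller was run; leaving out the 5% of cells with the most UMIs was an alternative.

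Clustering (scanpy 1.11.5, leidenalg 0.10.2) used 2000 variable genes without the listed network, target and cycle genes, 30 components, 15 neighbours and resolution 1. A class name needed at least 3 markers and 50% of its list at 20 CPM or more and 20% of the highest cluster, and no other class leading its 10 top genes; these cut-offs were set after seeing the data. Members, lists and comparisons were chosen with earlier results of these data known. Named genes are all 9 members, up to 4 genes of each list with the largest ratios plus, chosen after their values were seen, genes that a count of 5 or fewer needs, the 8 highest and 8 lowest between Mycn-only and Myc-only cells (at least 300 UMIs), and the 5 genes most like Myc and Mycn over clusters; some list genes that this rule names are not reported here. Gene positions come from GENCODE M21. The calculations were tested on simulated data.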

Additional observations from a re-analysis of the deposited data

Results flagged for a closer look

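The ratio of Myc between the libraries went in opposite directions in different cells. Its log2 ratio of AG-120 over vehicle was 1.11 within the Megakaryocyte-like class and 0.49 within the Erythroid-like class, but -1.39 within cluster 10, which is led by Prg2, Cd74 and Elane, and each counting interval excluded 0. Within the Megakaryocyte-like class, cluster 2 alone gave 0.51. The difference between these cells was not tested, since each library is 1 sample, and it rests on 38 AG-120 Megakaryocyte-like cells, 26 vehicle Erythroid-like cells and 30 AG-120 cells of cluster 10. AG-120 cluster 11, which passed the same share of granulocyte-monocyte progenitor markers as cluster 10, stood at 255 CPM of Myc. That level lies above the 214 CPM of vehicle cluster 10.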

How the results depend on the processing

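No paired analysis was possible because each treatment has 1 library, and no library could be left out in turn. The count of members higher moved from 2 to 4 with ratios shifted by the median over measured genes and to 1 at 2-fold. The count lower moved from 5 to 3 with classes weighted to the vehicle makeup to 2 at 2-fold, and to 4 in cells of 1500 genes or more with 5% mitochondrial UMIs or less. With weighted classes, Mxd1 and Mxd3 reversed to log2 ratios of 0.11 and 0.21. Over 10 alternatives the log2 ratio of Myc lay between 0.76 and 1.19, of Mycn between -4.44 and -2.70 and of Mxd4 between -2.22 and -1.80. The count of MYC targets higher was 16 at 2-fold and 39 to 43 under the others. Cells with both Myc and Mycn were 0.864 times the product without thinning, and 0.640 to 0.825 otherwise. The ratio of MYC targets in Mycn-only over Myc-only cells moved to 0.813 with at least 2 UMIs to be positive, 0.835 with cells holding both counted on both sides and 0.913 as a mean within clusters. Mycn in AG-120 G2/M cells against other phases, a log2 ratio of -1.01, became 0.36 with G2/M cells taken as those highest in G2/M list UMIs, on few UMIs. Alternatives chosen after seeing the data were leaving out barcodes seen in both libraries, which moved none of the counts, the product within clusters, and the Megakaryocyte-like class under other clusterings and as cluster 2 alone, where the log2 ratio of Myc was 0.51 against 1.11. Under other clusterings the class held 6.77% to 25.5% of vehicle cells against 27.9%. The log2 range between the highest and the lowest cluster was 1.95 at resolution 0.5 against 2.70 for Myc, 3.61 against 4.80 for Mxd4 and 0.90 against 2.54 for Mxd1. At resolution 0.5 the Basophil/mast-like cluster, highest in Mxd1 in the main clustering, held 38 AG-120 cells and was too small to be ranked. The part of this in the range of Mxd1, and the cause of the other shifts, were not tested. Depth limits Mycn under AG-120 (122 UMIs) and every value within small classes.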
